A study of Drosophila melanogaster with 8 samples.

Results

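The genes described here are 10 components of the Drosophila phototransduction cascade, measured in the pupal retina at a stage when most of the opsin genes examined had few or no reads. They are norpA, trp, trpl, inaD, inaC, Galphaq, Gbeta76C, Arr1, Arr2 and rdgA, chosen by name, and all 10 were found among the 15127 genes of the deposited table. RNA selected for polyadenylated transcripts was sequenced from retinas of female Drosophila melanogaster pupae raised at 25 °C and dissected 40 h after puparium formation. Control retinas came from the w[1118] stock (4 libraries, written W1, W2, W5 and W6 after the numbers in the column names). The compared retinas came from a w[*] sev[14] stock, which carries an allele of sevenless together with an unspecified allele of white (4 libraries, S1, S2, S4 and S5, called sev14 below). Retinas were pooled, with 10 to 20 prepared per genotype according to the labels' protocols. Nothing states that the libraries of a genotype came from separate days or animals, so the p-values reflect only how far these libraries differ among themselves, and part of that may be technical. Every sev14 library came from the same stock, so an effect of sevenless and other differences between the stocks cannot be told apart.

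Fly photoreceptors turn light into a voltage through a phospholipase C cascade. Light-activated rhodopsin switches on a Gq protein, whose alpha and beta subunits in the eye are encoded by Galphaq and Gbeta76C. Gq activates the phospholipase C encoded by norpA, and the lipid products of that enzyme lead to opening of the cation channels TRP and TRPL. The scaffold INAD, with several PDZ domains, holds TRP, the phospholipase and the eye protein kinase C encoded by inaC together in the rhabdomere, the stack of microvilli that captures light. The diacylglycerol kinase encoded by rdgA removes diacylglycerol, and the arrestins encoded by Arr1 and Arr2 bind activated rhodopsin and end its signal. In sevenless mutants the precursor of the R7 photoreceptor becomes a cone cell, and the design asks which transcripts of the retina differ when R7 cells are missing.

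Levels are given as the authors' normalized counts, which are reads divided by a size factor for each library. For comparisons between genes they are divided by the kb of annotated exon of the gene. In control retinas the 10 genes fell into a wide range of levels. Arr2 stood at 2999 ± 1323 normalized counts per kb (SD, n = 4), Gbeta76C at 2574 ± 427, inaC at 2264 ± 987 and trp at 2134 ± 441. Ranked among the 10102 tested genes that had an exon length, these 4 held places 322, 382, 440 and 474 from the top. Their order was not fixed, since each neighbouring pair among them was in the order of the means in only 2 of the 4 control libraries.

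Below them the order was the same in 4 of 4 control libraries at every step. The scaffold gene inaD was at 1261 ± 605 per kb (place 886), Galphaq at 650 ± 55.0 (place 1807), rdgA at 291 ± 42.9 (place 3883) and norpA at 139 ± 31.5 (place 5966). The last pair was far lower. The channel gene trpl was at 5.85 ± 0.821 per kb (place 9444) and Arr1 at 3.26 ± 0.673 (place 9757). From norpA to trpl the level dropped 23.7-fold, the widest step between neighbours in the order. Levels per kb depend on the exon length used: with the longest annotated transcript in place of all exons, Galphaq stood at place 1546 and rdgA, which has 11 annotated transcripts, at place 3079.

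**Figure D1:**
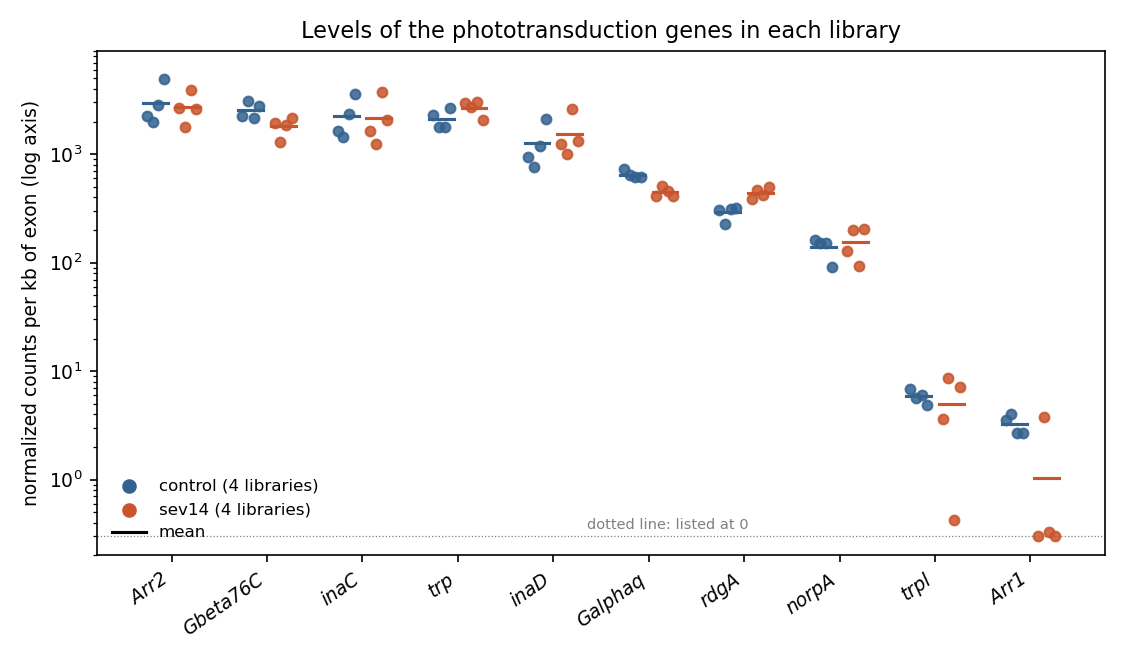
Normalized counts per kb of exon (log axis) of the 10 phototransduction genes in each of the 4 control and 4 sev14 libraries, ordered by the control mean, with horizontal lines at the means. Arr2, Gbeta76C, inaC and trp sit at the top, while trpl and Arr1 sit far below norpA in both genotypes; values of 0 are drawn at the dotted line.

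The G protein subunit genes come first in the cascade. Galphaq (FBgn0004435, 2R 12612740 to 12623197, plus strand; coordinates are those of the deposited table, BDGP6) had 5034, 4473, 4237 and 4220 normalized counts in W1, W2, W5 and W6. In S1, S2, S4 and S5 it had 2854, 3499, 3193 and 2826. Every sev14 library was below every control library, and the spread within a genotype was small, with coefficients of variation of 8.46% in control and 10.3% in sev14. Galphaq fell by 0.54 on the log2 scale (SE 0.12, 95% interval -0.81 to -0.27, limma adjusted p = 0.0331), which is 1.45-fold lower. In the authors' deposited table the adjusted p was 0.000639. The limma call was lost without any single library except S2, with adjusted p values of up to 0.0978. In bulk retinas, fewer cells that carry a transcript and less transcript per cell cannot be told apart. Galphaq shares 3050 exon bases with CG45086 on the same strand, which had 685 to 1081 normalized counts per library, so reads may be shared between them.

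Gbeta76C (FBgn0004623, 3L 19687637 to 19689992, plus strand) encodes the eye beta subunit that works with Galphaq. It had 3333, 4501, 3177 and 4080 normalized counts in the control libraries and 2855, 1905, 2754 and 3148 in the sev14 libraries. The genotypes did not overlap here either, but the gap between W5 at 3177 and S5 at 3148 was narrow. The log2 difference was -0.51 (SE 0.18, 95% interval -0.91 to -0.11), and it did not pass the test (limma adjusted p = 0.169, edgeR 0.192, DESeq2 0.106). The ratio of Galphaq to Gbeta76C within a library does not depend on how libraries are scaled and is not divided by exon length. It was 0.26 ± 0.29 (log2, SD, n = 4) in control and 0.23 ± 0.45 in sev14. Per kb of exon, Gbeta76C was instead 3.99-fold above Galphaq on average in control. The means of the log2 ratio differed by less than 1 SD of either genotype (exact permutation test, 2-sided, p = 0.971). The sign of that small difference turned when W1, W5, S1 or S5 was left out.

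The phospholipase C gene norpA (FBgn0262738, X 4322626 to 4365408, plus strand) had 1343, 1249, 1249 and 765 normalized counts in W1, W2, W5 and W6, and 1069, 1646, 774 and 1687 in S1, S2, S4 and S5. W6 and S4 were the lowest library of each genotype, and the genotypes overlapped over most of their range. The log2 difference was 0.13 with a 95% interval of -0.47 to 0.73 (limma adjusted p = 0.881), so no difference was called and differences inside that interval remain possible. The sign turned without W6 (-0.06), without S2 (-0.01) and without S5 (-0.02).

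The channel genes trp and trpl differed far more from each other than between the genotypes. The gene trp (FBgn0003861, 3R 29914521 to 29920289, minus strand) encodes the main light-sensitive channel. It had 9472, 7370, 7404 and 11168 normalized counts in the control libraries and 12314, 11216, 12550 and 8649 in the sev14 libraries. Its highest values were in S1, S2 and S4, but W6 and W1 lay above S5, and the log2 difference of 0.34 did not pass the test (95% interval -0.07 to 0.76, limma adjusted p = 0.406). The gene trpl (FBgn0005614, 2R 9753697 to 9765518, plus strand) encodes the second channel subunit of the adult photoreceptor. It had 30, 22, 21 and 17 reads in the control libraries and 13, 32, 2 and 29 in the sev14 libraries. All 8 libraries held trpl reads, with S4 lowest, and the log2 difference of -0.75 was within the spread (95% interval -2.46 to 0.96, limma adjusted p = 0.713) and was 0.06 without S4. Per kb of exon, trp was 375-fold above trpl on average in control, with a range of 295 to 555 over the 4 libraries.

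The scaffold and kinase genes were the members that varied most between libraries of the same genotype among those at high levels. The scaffold gene inaD (FBgn0001263, 2R 22855688 to 22858794, minus strand) had 2213, 1790, 2791 and 4965 normalized counts in W1, W2, W5 and W6, and 2873, 2356, 6093 and 3109 in S1, S2, S4 and S5. The kinase gene inaC (FBgn0004784, 2R 16898535 to 16901575, plus strand) had 3881, 3394, 5481 and 8537 in the control libraries and 3857, 2950, 8756 and 4832 in the sev14 libraries. Both genes were highest in W6 and S4 and lowest in W2 and S2. The genotypes overlapped for each gene, with log2 differences of 0.31 for inaD (95% interval -0.47 to 1.08, limma adjusted p = 0.753) and -0.09 for inaC (95% interval -0.89 to 0.71, limma adjusted p = 0.948). The inaC difference was above 0 without W6 (0.17), S2 (0.13) or S1 (0.0044).

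The ratio of these genes within each library varied less than either gene. The log2 ratio of inaC to inaD had the values 0.81, 0.92, 0.97 and 0.78 in W1, W2, W5 and W6. Its values in S1, S2, S4 and S5 were 0.42, 0.32, 0.52 and 0.64. The ratio was lower in 4 of 4 sev14 libraries than in any control library, at 0.48 ± 0.13 against 0.87 ± 0.09 (SD, n = 4 each). The difference of -0.39 had an exact permutation p of 0.0286, the smallest that 70 arrangements allow. Its adjusted p was 0.143 over the 5 ratios compared. A single ratio at the smallest p could not have passed this adjustment, so the adjusted p cannot decide whether the ratio differs. Neither gene passed the test on its own. The libraries of the genotypes did not overlap for 11.1% of single tested genes, and the share among gene pairs was not examined. inaD shares 7 exon bases with RpL23 on the opposite strand, which had 17862 to 43363 normalized counts per library. The sources used here do not say whether reads were counted by strand.

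The diacylglycerol kinase gene rdgA (FBgn0261549, X 8907068 to 9029476, plus strand) encodes the enzyme whose loss leads to retinal degeneration, the origin of its name. It had 4248, 3122, 4293 and 4359 normalized counts in W1, W2, W5 and W6, and 5284, 6493, 5747 and 6867 in S1, S2, S4 and S5. Every sev14 library was above every control library, and W2 was the lowest of all. rdgA rose by 0.61 on the log2 scale (SE 0.15, 95% interval 0.28 to 0.94, limma adjusted p = 0.0494), which is 1.53-fold. In the authors' deposited table the adjusted p was 0.00190, while edgeR gave 0.0639. The limma call was lost without any single library (adjusted p 0.0638 to 0.121) and under TMM scaling (0.0566) or total-read scaling (0.104).

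Within a library the log2 ratio of norpA to rdgA, the enzymes that make and remove diacylglycerol, was -1.82 ± 0.50 in control and -2.30 ± 0.42 in sev14 (SD, n = 4 each). The difference was within the spread (exact permutation p = 0.2, adjusted p = 0.333 over the 5 ratios).

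The arrestin genes showed the widest split of levels between close relatives. Arr2 (FBgn0000121, 3L 8647261 to 8648936, minus strand), which encodes the major arrestin of the adult eye, had 3477, 3095, 4388 and 7599 normalized counts in the control libraries and 4121, 2730, 6025 and 4009 in the sev14 libraries. W6 and S4 were again the highest and W2 and S2 the lowest, as for inaD and inaC. The log2 difference was -0.10 (95% interval -0.77 to 0.57, limma adjusted p = 0.927), and it was above 0 without W6 (0.17) or S2 (0.09). Arr1 (FBgn0000120, 2L 18078269 to 18081307, plus strand), whose product takes part in rhodopsin endocytosis, had 10, 10, 6 and 6 reads in the control libraries and 0, 9, 1 and 0 in the sev14 libraries.

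Arr1 thus had 32 reads of 60110807 in control, or 0.532 CPM (exact Poisson 95% interval 0.364 to 0.752, counting error only). It passed the filter of a mean of 5 normalized counts only through the control libraries and S2, so its log2 difference of -2.10 is not read further (95% interval -4.25 to 0.04, limma adjusted p = 0.309). Per kb of exon, Arr2 was 998-fold above Arr1 on average in control, with a range of 493 to 1827 over the 4 libraries. The log2 ratio of Arr2 to Arr1, which is not divided by exon length, was 8.92 ± 0.81 in control (SD, n = 4). In sev14 it rests on 0, 9, 1 and 0 Arr1 reads plus the pseudocount. Its difference between genotypes was among the 5 ratios tested but is therefore not read further. The log2 ratio of trp to trpl was 8.53 ± 0.41 in control and 9.62 ± 1.85 in sev14 (exact permutation p = 0.343), and in S4 it rests on 2 trpl reads.

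**Figure D2:**
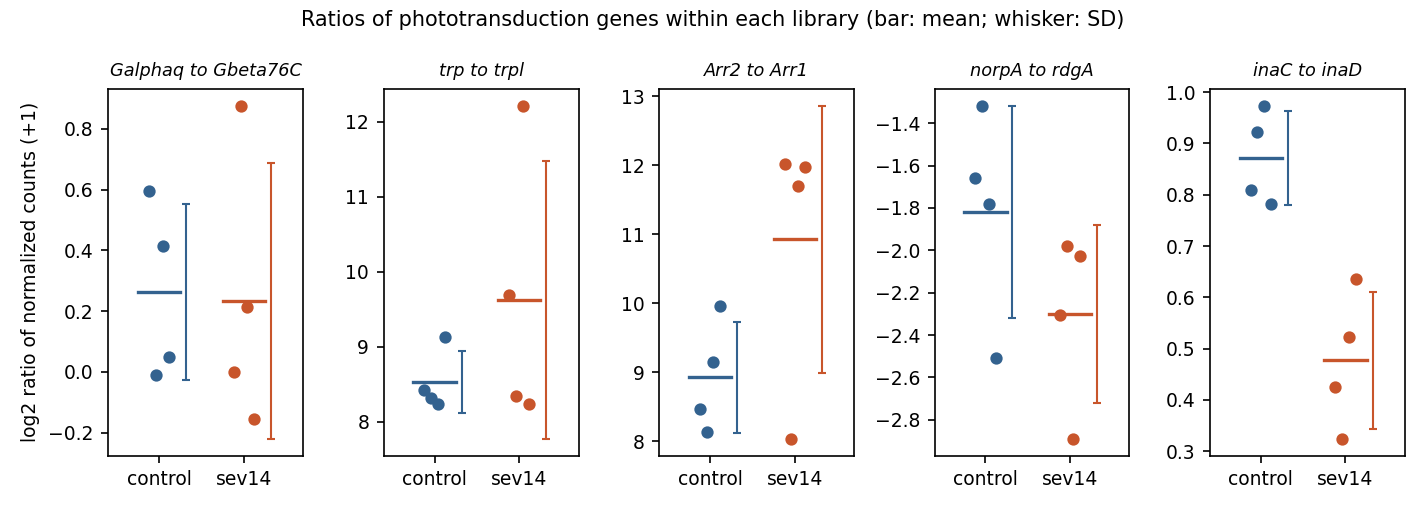
Log2 ratios of normalized counts (plus 1) for 5 pairs of phototransduction genes in each control and sev14 library, with bars at the mean and whiskers of 1 SD (n = 4). The inaC to inaD ratios do not overlap between genotypes (0.78 to 0.97 in control, 0.32 to 0.64 in sev14), whereas the other 4 pairs overlap. In sev14 the Arr2 to Arr1 ratios rest on 0 to 9 Arr1 reads per library.

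Across the 10 genes, 1 rose (rdgA) and 1 fell (Galphaq) by limma. Over all 10192 tested genes, 4.21% were called in either direction, 2.38% higher and 1.82% lower (243 and 186 genes; 178 and 268 with total-read scaling, under which the median gene shifted by -0.14). edgeR called Galphaq, beside 3.77% of tested genes called in either direction, 2.24% higher and 1.53% lower. DESeq2 called Galphaq and rdgA, beside 8.35% of the genes with an adjusted p, 4.96% higher and 3.39% lower. In the authors' deposited table, where 6.78% of genes passed, the same pair passed and Gbeta76C did not (adjusted p = 0.0662). The libraries of the genotypes did not overlap for 3 of the 10 genes, Galphaq, Gbeta76C and rdgA, against 11.1% of tested genes, 5.92% higher and 5.18% lower in sev14. The median log2 difference of the 10 genes was -0.09, beside 0.00416 over all tested genes. In the order of levels per kb in sev14 retinas, trp stood at place 373 and Arr2 at place 370, while Galphaq stood at place 2682 and rdgA at place 2708.

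**Figure D3:**
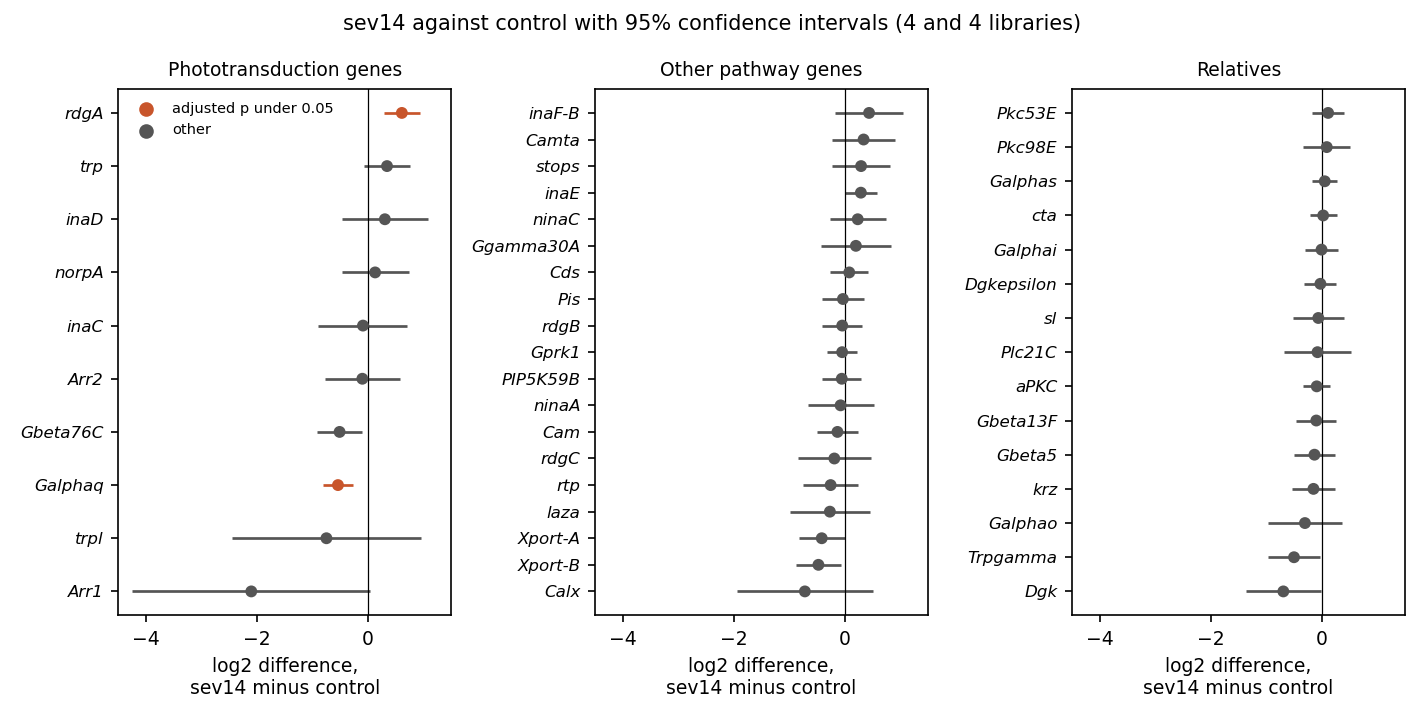
Log2 differences (sev14 minus control) with 95% confidence intervals from limma for the 10 phototransduction genes, 19 other genes of the pathway and 15 relatives of the 10 genes that were tested. Only rdgA (0.61) and Galphaq (-0.54) are past the threshold, and the intervals of Arr1 and trpl are the widest.

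The opsin genes, which encode the light-absorbing proteins that start the cascade, ranged at the same stage from no reads in any library to 316 reads in W1 for Rh7. Rh2, the opsin of the ocelli, and Rh4, an R7 opsin, had 0 of 130462463 reads over the 8 libraries, which allows up to 0.0230 CPM for each. Rh3, the other R7 opsin, had 14 reads in control and 3 in sev14, of which 11 came from W6. Rh5, an R8 opsin, had 16 reads in control and 14 in sev14, with 11 of the latter in S5. Rh6, the other R8 opsin, had 38, 30, 52 and 40 reads in the control libraries and 3, 3, 3 and 0 in S1, S2, S4 and S5, with every sev14 library below every control library. Rh6 passed the filter of a mean of 5 normalized counts only through the control libraries, so, as for Arr1, its difference is not read as a call. The opsin gene Rh7, which is also used outside the eye, had 101 to 316 reads per control library and 63 to 108 per sev14 library. Its log2 difference was -1.06, called by DESeq2 only (limma adjusted p = 0.130, edgeR 0.119, DESeq2 0.0462), and the genotypes overlapped. The opsin gene of the outer photoreceptors, ninaE, was not analysed here. Against Rh6 at 29.6 ± 8.99 normalized counts per kb in control, the genes at the top of the cascade's order stood above 2000 per kb.

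Beside the members, 19 other genes of the pathway were examined. None of the 19 was called by limma, edgeR or DESeq2, and 2 had an unadjusted limma p under 0.05, beside 16.7% of all tested genes. Their median log2 difference was -0.05. The eye G gamma subunit gene Ggamma30A was at 663 ± 217 normalized counts per kb in control, and had 8315 ± 2726 normalized counts in control and 9589 ± 3215 in sev14 (SD, n = 4, limma adjusted p = 0.807). At this stage the Ggamma30A level per kb was close to that of Galphaq and was 0.258 of the Gbeta76C level on average, although its long exons make the value sensitive to the transcripts in use. The largest differences in the list were those of Calx, a sodium and calcium exchanger (-0.72, limma adjusted p = 0.596), and Xport-B, a chaperone of TRP and rhodopsin (-0.47, limma adjusted p = 0.209). Xport-A and Xport-B overlap on the same strand, so their values are not independent, and they had 3889 ± 799 and 4655 ± 901 normalized counts in control.

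The members were also set beside relatives that serve many tissues. The arrestin gene krz was at 187 ± 35.3 normalized counts per kb in control, 57.7-fold above Arr1 on average and below Arr2 in 4 of 4 libraries. The TRPC channel gene Trpgamma was at 118 ± 8.24 per kb, above trpl by 20.4-fold and below trp in 4 of 4 libraries. The protein kinase C genes aPKC, Pkc98E and Pkc53E were at 403 ± 6.08, 331 ± 36.0 and 88.7 ± 5.81 per kb, each under the inaC mean of 2264.

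In the other families the eye gene was closer to its relatives or below some of them. The G alpha genes Galphas, cta, Galphai and Galphao were at 810 ± 41.2, 593 ± 62.7, 579 ± 76.6 and 400 ± 148 per kb, around Galphaq at 650 ± 55.0, and Galphaf was below the filter at 2.84 ± 3.58 normalized counts. The G beta gene Gbeta13F was at 1965 ± 259 per kb against 2574 ± 427 for Gbeta76C, with Gbeta76C higher in 3 of 4 libraries, and Gbeta5 was at 281 ± 28.3. The phospholipase C genes Plc21C and sl were at 166 ± 27.7 and 102 ± 26.8 per kb, and Plc21C was above norpA in 4 of 4 control libraries. The diacylglycerol kinase gene Dgkepsilon was at 593 ± 68.9 per kb, above rdgA in 4 of 4 libraries, while Dgk was at 74.1, with 51.6 to 107 over the libraries.

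None of the 15 tested relatives was called by limma, edgeR or DESeq2, with 2 at an unadjusted limma p under 0.05 beside the same 16.7% of all tested genes. Beside the difference of -0.54 for Galphaq, those of its relatives were 0.06 for Galphas, -0.000215 for Galphai, 0.03 for cta and -0.30 for Galphao. Beside 0.61 for rdgA, Dgkepsilon differed by -0.02 and Dgk by -0.69 (95% interval -1.37 to -0.01, limma adjusted p = 0.292). Trpgamma differed by -0.50 (limma adjusted p = 0.252), and the other relatives of the list lay between -0.15 for krz and 0.12 for Pkc53E. Whether the difference of a member differs from that of its relatives was not tested.

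**Figure D4:**
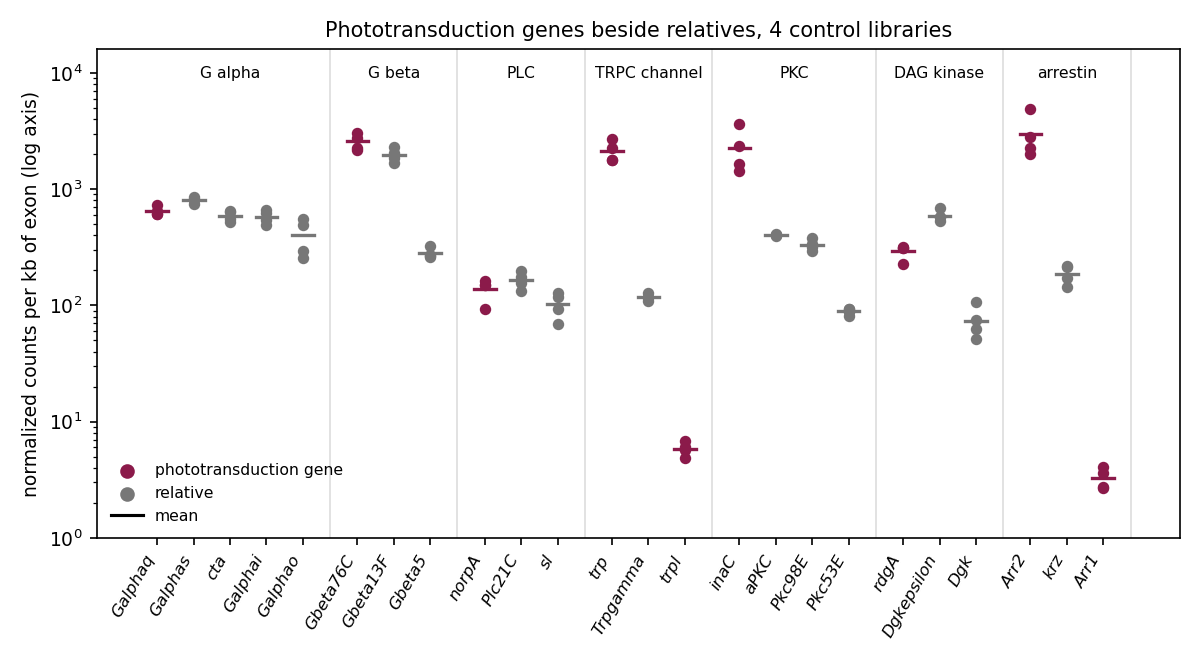
Normalized counts per kb of exon (log axis) in the 4 control libraries for the phototransduction genes and the relatives of each family, with horizontal lines at the means; inaD has no relative in the lists and Galphaf was not drawn. Arr2, trp and inaC lie above their relatives, trpl and Arr1 lie below theirs, and norpA and rdgA lie under Plc21C and Dgkepsilon.

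The libraries of a genotype differed in ways that members followed in opposite directions. Relative to the genotype mean on the log2 scale, inaD was 0.87 higher in W6 and 0.86 higher in S4, inaC 0.78 and 0.90 higher, and Arr2 0.80 and 0.57 higher. The gene norpA went the other way, 0.56 below its mean in W6 (-0.56) and 0.67 below in S4 (-0.67), and 0.42 above it in S2. The residual SD between libraries was 0.61 for inaD, 0.63 for inaC, 0.52 for Arr2 and 0.46 for norpA, against a median of 0.25 over the 7744 tested genes whose mean reached 100. Galphaq at 0.13 and rdgA at 0.20 were below that median.

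Some markers of other tissue moved with the same libraries. The mean deviation of 9 optic lobe and brain neuron markers took the values 0.56, 0.65, -0.43 and -0.79 in W1, W2, W5 and W6. In sev14 it was highest in S2, at 0.15 in S1, -0.32 in S5 and -0.94 in S4. It was lowest in W6 and S4, where inaD, inaC and Arr2 were highest. The summed level of these 9 markers ranged from 2916 to 7418 normalized counts in control and from 2040 to 7053 in sev14, with none at 0 in a genotype. Fat body markers were also lowest there, with mean deviations of -0.60 in W6 and -0.74 in S4. Muscle markers deviated by -1.97 and -0.55, but in sev14 they were lowest in S5 (-0.66). Mean deviations in W6 and S4 were -0.12 and -0.31 for glia and -0.19 and -0.20 for haemocytes. In control the haemocyte markers were lowest in W1 (-0.27). Cone and pigment cell markers had -0.13 and -0.04, and tracheal markers 0.01 and -0.08. The 8 photoreceptor markers (elav, chp, eys, prom, Hdc, nSyb, gl and Pph13) deviated by 0.26 in W6 and 0.33 in S4 and by -0.16 in W2 and -0.15 in S2. The part of these tissue markers in the levels of the members was not tested. Without W6 and S4 the difference was -0.59 for Galphaq (limma adjusted p = 0.0848) and 0.68 for rdgA (limma adjusted p = 0.0995).

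**Figure D5:**
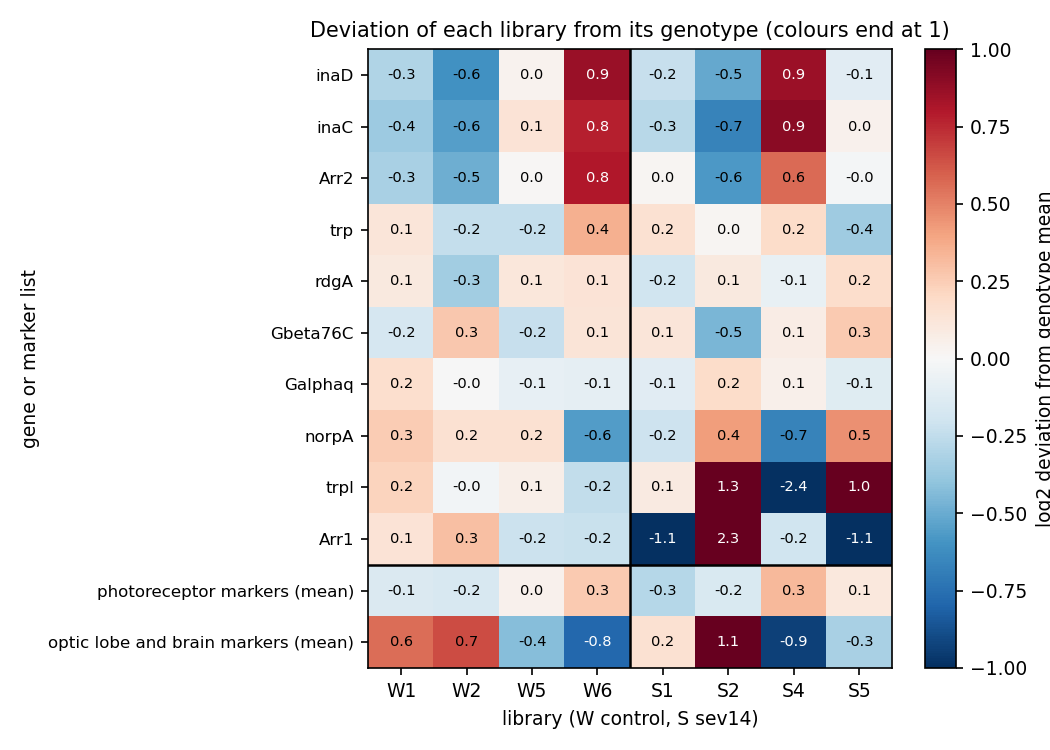
Log2 deviation of each library (columns, W control and S sev14) from the mean of its genotype for the 10 genes and for the means of 8 photoreceptor and 9 optic lobe and brain markers, as numbers and colours. The genes inaD, inaC and Arr2 are high in W6 and S4, where norpA and the optic lobe and brain markers are low.

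Likeness of patterns over the 8 libraries was measured as the root mean square distance between log2 profiles, each centred on its own mean, among those 7744 genes. The libraries share depth and tissue differences, so these distances only describe. For norpA the nearest genes were brp, which encodes a protein of the presynaptic active zone, at 0.121, and Dys at 0.127, against a median distance of 0.501. For inaD they were Osi11 at 0.135 and inaF-B, from the inaF locus that TRP function requires, at 0.148. For inaC they were Gart, of purine synthesis, at 0.166 and rdgC, the rhodopsin phosphatase gene, at 0.168, with Arr2 in the third place at 0.172. For Arr2 they were CG13096 at 0.107 and Pgant2 at 0.157, and inaC was in place 7.

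For Galphaq the nearest gene was nSyb, which encodes the neuronal synaptobrevin of synaptic vesicles, at 0.0837, followed by TP53INP at 0.0967. nSyb itself had 3876 ± 308 normalized counts in control and 2665 ± 391 in sev14 (-0.55, limma adjusted p = 0.0489, edgeR 0.0594, DESeq2 0.00517). The distance includes the genotype difference, so a gene picked as nearest to Galphaq is bound to differ by a similar amount. For rdgA they were CG10348 at 0.104 and ana1 at 0.105, for trp cysu at 0.0841 and Mpc1 at 0.0968, and for Gbeta76C cold at 0.109 and IleRS-m at 0.131. The genes at low levels had no close match, at 0.382 for CR46006 and 0.434 for CG13739 with trpl, and 0.554 for dcma and 0.743 for beat-VII with Arr1. Of the 7 other members whose mean reached 100, the farthest from norpA was inaC at a distance of 0.906.

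Among 9 transcription factor genes known for eye and photoreceptor differentiation, none was called by limma, edgeR or DESeq2, and 1 had an unadjusted limma p under 0.05, again beside 16.7% of all tested genes. The largest differences were those of salm (-0.60, limma adjusted p = 0.373) and Mef2 (0.41, limma adjusted p = 0.637). The retina markers were present in every library, led by chp at 12445 normalized counts on average in control. Of the 8 photoreceptor markers, nSyb fell by limma and DESeq2 but was not called by edgeR. It encodes the neuronal synaptobrevin, so its reads need not come from photoreceptors alone. The other 7 were called by none of the 3 tools. The summed level of the 8 photoreceptor markers was 32173 to 50042 normalized counts in control and 37053 to 65570 in sev14. Of the other marker lists, limma called 0 of 6 cone and pigment cell, 2 of 9 glial, 1 of 8 fat body, 0 of 6 haemocyte, 0 of 9 muscle and 1 of 7 tracheal genes that were tested, beside 4.21% of all tested genes. DESeq2, which called 8.35% of all genes, called 4 glial, 3 fat body, 1 muscle and 5 tracheal genes of these lists. Of the 7 tracheal genes, edgeR called 3 and 6 had an unadjusted limma p under 0.05, and their median log2 difference was 1.61. The median was 0.81 for the fat body list and -0.22 for the glial list. It was -0.49 for the optic lobe and brain list, where 7 of 9 genes had a negative difference. Limma, edgeR and DESeq2 each called 0 of those 9. For the muscle, haemocyte and cone and pigment cell lists the medians were -0.39, 0.39 and -0.06. The part of these tissues in the levels of the members was not tested. The tracheal list summed to 6777 to 16775 normalized counts in control and 23434 to 27417 in sev14. Recovered reads ranged from 13755813 to 19317307 per library.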

How the data were processed

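Polyadenylated RNA of 8 pupal retina libraries was analysed. The tools named in the submitters' processing notes are DESeq2 1.32.0, RSEM 1.2.31, HISAT2 2.0.3, FastQC 0.11.4 and cutadapt 1.9.1, and the notes name dm6 and BDGP6 as builds. The deposited signal per gene is a normalized count that the authors made, a gene count divided by 1 size factor per library. Dividing by the value of 1 read gave whole reads, to within 0.05, for 99.98% or more of the values above 0 in each library. In W2 the step is close to 1, which alone could not be told from rounding. The authors' deposited log2 fold change, score and adjusted p-value were used only where named.

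The 10192 genes whose mean reached 5 normalized counts entered a limma fit (version 3.58.1, R 4.3.3) of log2 values, with a pseudocount of 1 and a variance trend. Tests were 2-sided and p-values were adjusted over all tested genes by Benjamini-Hochberg, with 0.05 as the threshold. Ratios of 5 member pairs were compared with exact permutation tests (scipy 1.17.1). Levels per kb used the union of exons in the Ensembl BDGP6 annotation, in which 98.6% of the matched identifiers have the same coordinates as the deposited table. Alternatives were TMM, recomputed and total-read scaling, other pseudocounts and filters, edgeR 4.0.16 and DESeq2 1.42.0 on recovered reads, array weights, a replicate block and left-out libraries. On simulated data for sev14 against control (10192 genes, 50 changed per fold) the limma test recovered 8% of genes changed 1.5-fold, 52% at 2-fold and 94% at 8-fold. Of 125 list entries 124 were matched. The members, lists and left-out pairs were chosen with earlier results of these data known. Named genes were all members, opsins and relatives; of the other pathway and transcription factor lists, called genes or else the 2 largest differences; and the 2 nearest profiles per member. Promoter motifs, planned for the members, were not analysed here.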

Additional observations from a re-analysis of the deposited data

Results flagged for a closer look

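Of 108 sets of 4 libraries examined for a library far from the other 3, 8 were set apart. Chance alone sets apart about 1 in 20 where values are normally distributed. Sets with few or no reads need not follow that rate, and sets that share a gene are not independent. The 8 are therefore not read against that rate. Among the members, norpA had 765 normalized counts in W6 where W1, W2 and W5 had 1249 to 1343, and rdgA had 3122 in W2 against 4248 to 4359. Arr1 had 9.42 in S2 against 0 to 0.818 in the other sev14 libraries, and the log2 ratio of Arr2 to Arr1 was accordingly 8.03 in S2 against 11.70 to 12.01. Among the opsins, Rh3 was at 3.22 in S1 with 0 in the other sev14 libraries, and Rh5 was at 10.5 in S5 against 0.818 to 1.07. Gprk1, a rhodopsin kinase gene, had 1947 in S2 against 1672 to 1707, and Gbeta5 had 499 in W2 against 407 to 421.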

How the results depend on the processing

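The counts of members were close to the threshold. The number of members that rose was 0 in place of 1 with TMM scaling, total-read scaling, array weights, edgeR, no filter, a filter of 20, a pseudocount of 0.5, the replicate block by column number, without S2 and S5, and without W6 and S4, and 0 to 0 over the 8 left-out libraries. The number that fell was 0 with the replicate block, without S2 and S5 and without W6 and S4, and 0 to 1 over the left-out libraries. Genes called higher over the whole table numbered 503 by DESeq2, 144 without S2 and S5 and 156 without W6 and S4, and 142 to 251 over the left-out libraries; genes called lower numbered 344 by DESeq2 and 105 without W6 and S4, and 110 to 191. Total-read scaling moved the median gene by -0.14. Directions turned for norpA (-0.013 with total-read scaling, -0.31 without S2 and S5, -0.056 to 0.35 over left-out libraries), inaC (0.22 without S2 and S5, -0.39 to 0.17), Arr2 (0.20 without S2 and S5, -0.29 to 0.17) and trpl (-1.18 to 0.057). The log2 ratio of Galphaq to Gbeta76C differed by -0.24 to 0.10 over left-out libraries. The causes were not tested.

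Nothing states that the numbers in the column names pair the libraries. Deviations of same-numbered libraries correlated at 0.0869, 0.190 and 0.0625 across genes, and W6 correlated best with S4 (0.387). These correlations cannot show whether the libraries were prepared as pairs. With the replicate block, in which W6 and S4 have no partner, the difference was -0.59 for Galphaq (limma adjusted p = 0.0955) and 0.68 for rdgA (0.0917). The other 4 ratios kept their direction in every alternative run, though that of Arr2 to Arr1 rests on few or no Arr1 reads in sev14. Few reads limit trpl, Arr1 and the opsins.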
